A study of Mus musculus with 16 samples.

Results

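Gene expression in the quadriceps of fasted Klf15-null mice was compared with that of fasted wild-type mice. The comparison used 8 of the study's 16 arrays, chosen by sample title: quadriceps samples WT1 to WT4 (4 wild-type arrays) and KO5 to KO8 (4 knockout arrays). The other 8 arrays held liver of the same genotypes. All mice were female, 4 to 5 months old and fasted for 18 h, so the wild-type samples carried the fast as well and no fed muscle was measured. The titles number the samples without saying that each came from a separate mouse, so the spread behind the p-values is that of these samples and may in part be technical. The sources do not give how the null allele was made and do not describe it as limited to muscle.

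Klf15 belongs to the Kruppel-like family of DNA-binding proteins, whose zinc fingers recognise GC-rich and CACCC sequences, and it is known in mice for raising the enzymes that break down amino acids during fasting. Skeletal muscle begins branched-chain amino acid breakdown: the mitochondrial transaminase turns leucine, isoleucine and valine into ketoacids, and the branched-chain ketoacid dehydrogenase then commits these to oxidation. Fasted muscle also burns fatty acids, which enter mitochondria through the carnitine shuttle and pass electrons to the electron transfer flavoprotein.

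Each value is a quantile-normalized array signal in linear units. Differences, with standard errors (SE), subtract the wild-type mean from the knockout mean of log2(signal + 16). The added 16 shrinks differences of dim genes. A gene was called when its Benjamini-Hochberg adjusted p in limma was under 0.05. Before normalization the median signal lay between 32.5 and 59.2 on 7 of the 8 arrays and was 15.6 on knockout 8, where 21.3% of all signal came from the 100 brightest probe sets, against 11.6% to 16% on the others. Knockout 8 was scanned 3 days after the others. The ratio of 3' to 5' Gapdh signal, which rises as RNA degrades, was 0.785 to 0.790 on knockouts 5 to 7, 0.855 to 0.937 on the wild-type arrays and 1.093 on knockout 8, so with knockout 8 set aside this ratio separates the genotypes. The same ratio for actin overlapped, at 0.84 to 1.101 in wild type and 0.737 to 0.926 in knockout, with knockout 8 at 0.855. Fluidics station 2 processed every wild-type array and station 1 every knockout array, and genotype and station cannot be told apart. Results are therefore given with and without knockout 8, and the part of these differences in any result was not tested.

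In knockout quadriceps, 61 of 8023 genes were called (0.76%), 55 of them lower (0.686%) and 6 higher (0.0748%). Of the falls 31 were at least 2-fold, and of the rises 1 was. The groups did not overlap for any of the 61, against 671 of all genes tested (8.36%). Choosing genes by p on these same arrays largely builds this in. Without knockout 8, 633 genes were called (7.89%), 412 lower (5.14%) and 221 higher (2.75%), and these held all 61. Leaving out a wild-type array instead gave 36 (without wild type 1), 33 (2), 29 (3) or 38 calls (4), and leaving out knockout 5, 6 or 7 gave 42, 43 or 48. Of the 61, 24 were also called in every other setting in which they were tested, which was 24 settings for 21 of them and 23 for Acot1, Ehhadh and Fgfbp1, left out by the 60th percentile filter: Acot1, Acot7, Adhfe1, Aldh6a1, Bcat2, Bckdhb, Dbt, Ehhadh, Fgfbp1, Gcdh, Gstk1, Gstm2, Hsd17b10, Klf10, Klf15, Kyat3, Nfkbib, Rbl2, Rrs1, Selenbp1, Slc25a42, Tango2, Zfp275 and Zfyve21. The other 37, which include all 6 rises, lost the call in at least 1 setting. A fit of every probe set separately was not counted among these settings. The share of calls that were higher was 9.84% with all arrays and 34.9% without knockout 8. The median difference over all genes tested was -0.06 with all arrays and -0.09 without knockout 8. An unadjusted p under 0.05 was reached by 1197 genes (14.9%), the share against which such counts in the gene lists are to be read. Counts of called members there are to be read against the called shares of all genes, 0.686% lower and 0.0748% higher with all arrays. Without knockout 8 those shares were 5.14% and 2.75%. The median difference was -0.18, -0.27 or -0.48 when the arrays were scaled to their medians, centred or not scaled, and differences are read against that shift.

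Klf15 itself was the second largest fall. Its signal was 614, 433, 605 and 682 on wild-type arrays 1 to 4, and 13.7, 80.4, 84.0 and 44.6 on knockout arrays 5 to 8. Every knockout array lay below every wild-type array, and the difference was -3.20 (SE 0.32, adjusted p = 0.000305, limma; -3.18 without knockout 8). The position of the Klf15 probes against the deletion is unknown here, so the residual signal checks the labels only in part. Among the other Kruppel-like factors, Klf10, a repressor induced by TGF-beta, went from 370, 312, 215 and 443 to 67.7, 50.7, 91.0 and 137 (-1.80, adjusted p = 0.00519, limma). Of 12 tested members these 2 were called, both lower, and 10 were not (list median -0.16). Klf4 was at -0.88 with all arrays, not called, and was called without knockout 8 (-0.96) and in 11 of 24 other settings in all.

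The promoters of 6 of the largest falls other than Klf15 are shown. For Adhfe1, the largest fall, and for Aldh2 no promoter entry was available. The 6 code for a growth factor carrier, a valine enzyme, a lipid thioesterase, a ketoacid dehydrogenase subunit, a selenium-binding protein and a glutathione transferase. Each line gives the 250 bases before the first start that RefSeq lists, build GRCm38.p6, read 5' to 3' on the gene's strand. Capitals mark CACCC or its reverse complement GGGTG, and the GC box CCGCCC or its reverse complement GGGCGG, and matches of the motifs can share end letters. The stretch for Fgfbp1 is chr5:43981800-43982049 (minus strand), for Aldh6a1 chr12:84451025-84451274 (minus strand), for Acot1 chr12:84009252-84009501 (plus strand), for Bckdhb chr9:83924887-83925136 (plus strand), for Selenbp1 chr3:94932833-94933082 (plus strand) and for Gstm2 chr3:107986421-107986670 (minus strand).
Fgfbp1: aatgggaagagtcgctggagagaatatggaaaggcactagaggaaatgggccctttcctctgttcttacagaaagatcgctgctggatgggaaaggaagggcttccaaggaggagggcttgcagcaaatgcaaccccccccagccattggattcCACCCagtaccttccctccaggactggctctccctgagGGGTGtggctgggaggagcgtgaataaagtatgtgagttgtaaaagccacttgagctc
Aldh6a1: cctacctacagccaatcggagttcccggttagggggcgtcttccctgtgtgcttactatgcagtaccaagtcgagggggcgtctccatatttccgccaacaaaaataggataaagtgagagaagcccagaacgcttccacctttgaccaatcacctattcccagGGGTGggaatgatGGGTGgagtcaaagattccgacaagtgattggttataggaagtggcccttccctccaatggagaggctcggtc
Acot1: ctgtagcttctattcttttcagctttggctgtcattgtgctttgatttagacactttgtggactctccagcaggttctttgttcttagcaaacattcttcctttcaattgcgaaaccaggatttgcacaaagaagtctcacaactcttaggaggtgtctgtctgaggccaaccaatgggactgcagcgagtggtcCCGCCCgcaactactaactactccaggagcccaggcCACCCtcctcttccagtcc
Bckdhb: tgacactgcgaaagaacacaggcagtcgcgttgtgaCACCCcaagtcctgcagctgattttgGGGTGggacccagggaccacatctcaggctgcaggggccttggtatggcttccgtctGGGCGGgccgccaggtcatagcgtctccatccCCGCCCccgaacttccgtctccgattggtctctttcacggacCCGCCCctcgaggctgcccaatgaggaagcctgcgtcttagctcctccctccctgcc
Selenbp1: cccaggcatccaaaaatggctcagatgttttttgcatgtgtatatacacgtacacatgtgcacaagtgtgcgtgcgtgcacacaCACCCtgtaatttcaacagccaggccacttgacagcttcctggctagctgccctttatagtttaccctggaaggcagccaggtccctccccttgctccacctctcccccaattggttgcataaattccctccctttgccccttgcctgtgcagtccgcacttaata
Gstm2: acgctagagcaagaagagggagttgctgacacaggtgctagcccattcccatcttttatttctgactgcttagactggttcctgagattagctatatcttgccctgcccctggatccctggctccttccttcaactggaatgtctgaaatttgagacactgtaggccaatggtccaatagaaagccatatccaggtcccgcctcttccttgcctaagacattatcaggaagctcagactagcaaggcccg
Bckdhb held 2 CACCC and 3 GC box matches, Acot1 held 1 of each, Fgfbp1 and Aldh6a1 held 2 CACCC matches and 0 GC boxes, Selenbp1 held 1 CACCC match and 0 GC boxes, and Gstm2 held neither. Of the 55 called falls, 42 had an entry in the promoter table. CACCC was present in 28 of these 42 (66.7%), against 56.7% of 6545 promoters of genes tested, and the GC box in 21 (50.0%), against 60.7%. Both motifs were present in 28.6% and 36.0%. Of the 319 promoters of genes called lower without knockout 8, CACCC was in 57.1% and the GC box in 62.7%, near the shares over all genes tested. These counts describe letters in a fixed window and were not tested.

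The largest fall of all was in Adhfe1, a mitochondrial alcohol dehydrogenase acting on 4-hydroxybutyrate. Its signal was 523, 302, 420 and 378 on the wild-type arrays and 3.03, 5.33, 1.47 and 7.02 on the knockout arrays. The groups lay far apart, with a difference of -4.36 (SE 0.18, adjusted p = 1.09e-07, limma), and a further probe set of the gene gave -3.32. Fgfbp1, a secreted carrier that binds fibroblast growth factors, went from 136, 115, 124 and 95.8 to 24.3, 6.31, 11.9 and 1.83 (-2.36, SE 0.24, adjusted p = 0.000305, limma). Selenbp1, which binds selenium, went from 190, 211, 206 and 187 to 34.6, 33.5, 51.7 and 35.4 (-1.98, SE 0.15), and its knockout arrays held less than the lowest wild-type array by a wide margin. The knockout means of 5 called falls, Adhfe1, Fgfbp1, Acot1, Prodh and Med22, were under 22.1, the signal required for testing, so their exact sizes are uncertain. The plot of the 16 largest falls shows every array of these genes.

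**Figure D1:**
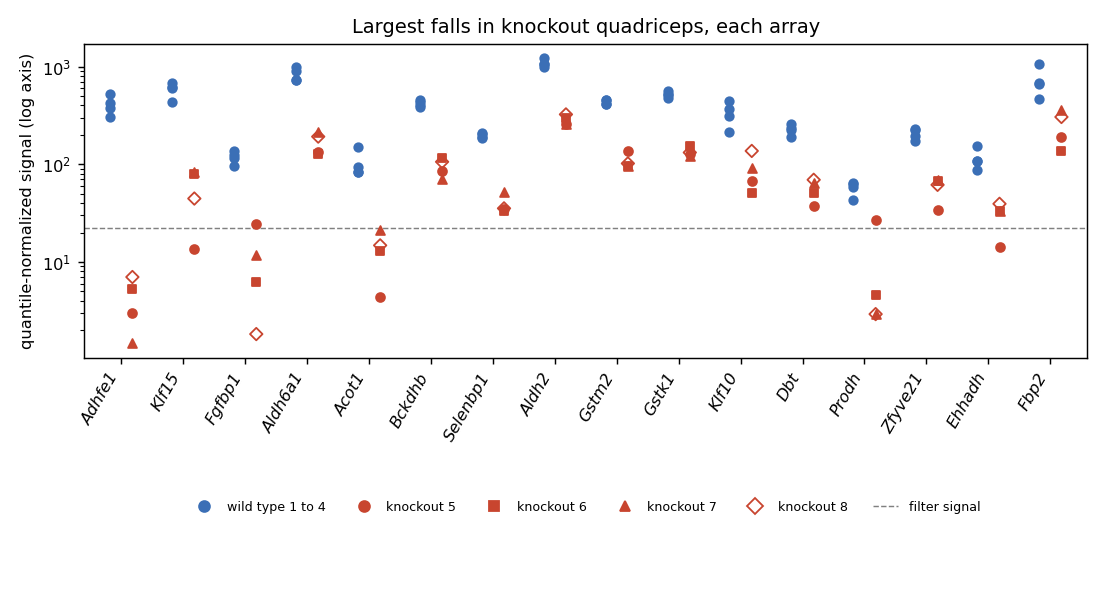
Quantile-normalized signal (log axis) of the 16 largest called falls in quadriceps, 1 point per array, with wild-type arrays in blue and knockout arrays in red and the dashed line at the filter signal of 22.1. In each gene all 4 knockout arrays lie below all 4 wild-type arrays, knockout 8 (open diamond) included.

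Transcripts for several enzymes of the first steps of branched-chain amino acid breakdown were lower. In the list of transamination and the ketoacid dehydrogenase, 4 of 7 tested members fell and 0 rose (list median -0.74, against -0.06 for all genes; -0.65 without knockout 8). Bckdhb, the beta subunit of the dehydrogenase's first component, went from 403, 451, 390 and 430 to 85.6, 116, 70.3 and 106 (-1.99, SE 0.15, adjusted p = 1.87e-05, limma). Dbt, the acyltransferase core, went from 257, 235, 226 and 189 to 37.8, 51.1, 64.4 and 69.4 (-1.78, SE 0.17). Bcat2, the mitochondrial transaminase that muscle uses for the first step, went from 117, 152, 143 and 155 to 41.3, 40.6, 42.2 and 32.5 (-1.51, SE 0.15, adjusted p = 0.000199, limma). All 3 were separated from wild type on every array. Bckdha, the alpha subunit of the first component, fell less (-0.74, SE 0.12; 467, 425, 490 and 490 to 275, 319, 275 and 232). The members that were not called, named after their values were seen, were Dld, a component shared with other dehydrogenases (0.04, SE 0.12), Bckdk, the kinase that switches the complex off (-0.23, SE 0.11), and the mitochondrial branched-chain carrier Slc25a44 (-0.15, SE 0.14).

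Further along these routes, 6 of 12 tested members of the distal list fell and 0 rose (list median -0.48). Aldh6a1, which oxidises methylmalonate semialdehyde in valine breakdown, went from 731, 904, 735 and 991 to 134, 126, 214 and 192 (-2.25, SE 0.18, adjusted p = 2.51e-05, limma). The others were Hsd17b10 (-0.99, SE 0.12) and Acadsb (-0.74, SE 0.13) of isoleucine breakdown, Ivd (-0.94, SE 0.17), the isovaleryl-CoA dehydrogenase of leucine breakdown, Acat1 (-0.59, SE 0.11), a mitochondrial thiolase, and Hibadh (-0.55, SE 0.09) of valine breakdown. The remaining 6 were not called: Mccc1 (-0.41, SE 0.14; -0.48 and called without knockout 8), Mccc2 (-0.01, SE 0.21), Auh (0.04, SE 0.19), Acad8 (-0.17, SE 0.15), Hibch (-0.06, SE 0.13) and Aldh3a2 (0.33, SE 0.18). The enzymes around Hibch in valine breakdown thus differed in size, from -2.25 for Aldh6a1 to -0.06 for Hibch itself.

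Of the 8 tested enzymes and cofactor genes from propionyl-CoA to succinyl-CoA, 1 fell, Mmut, the methylmalonyl-CoA mutase. It went from 501, 496, 534 and 615 to 331, 230, 271 and 234 (-0.98, SE 0.14, adjusted p = 0.00508, limma). Pcca (-0.28, SE 0.11), Pccb (0.06, SE 0.23) and Mcee (-0.23, SE 0.13), which act before it, were not called (list median -0.15). Over the 3 branched-chain lists, 11 of 27 tested members fell and 0 rose, and the same 11 counted without knockout 8 together with Mccc1. The plot of the route shows these differences beside those in liver.

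**Figure D2:**
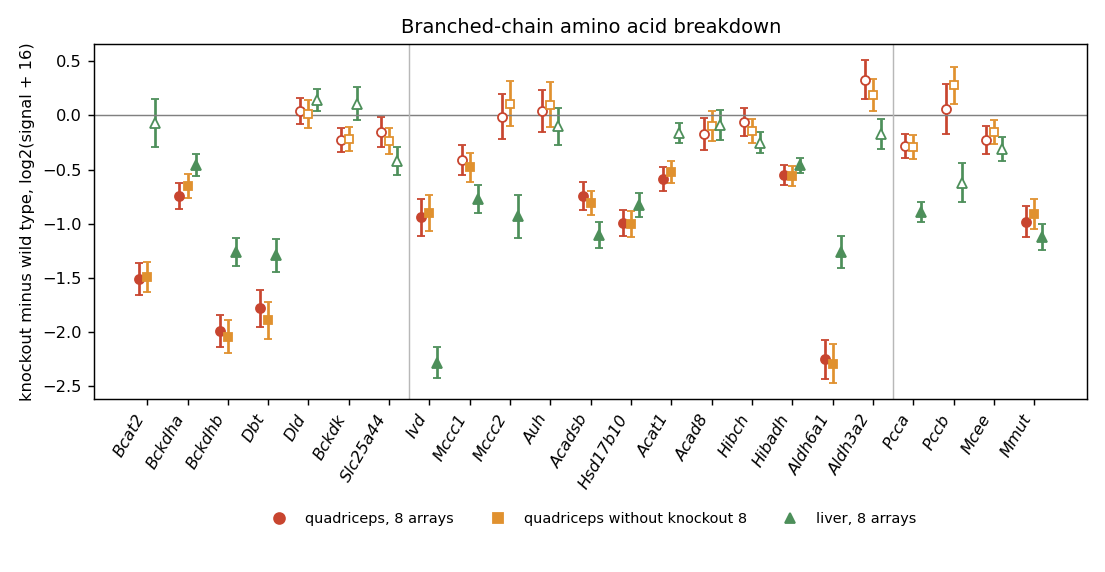
Difference between knockout and wild type in log2(signal + 16), with the SE, for enzymes of branched-chain amino acid breakdown in quadriceps with 8 arrays (red), in quadriceps without knockout 8 (orange) and in liver (green); filled symbols were called and grey lines part the 3 lists. Bcat2 was at -1.51 in quadriceps and -0.07 in liver, where its wild-type signal was only 32.0, while Ivd was at -0.94 and -2.28.

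Liver arrays of the same study served to ask where the quadriceps differed. In liver too, station 2 processed every wild-type array and station 1 every knockout array, so genotype and station cannot be told apart in either tissue. Of the 55 quadriceps falls, 50 had a difference below 0 in liver, against 47.0% of all genes tested. Of the same 55, 31 (56.4%) were also called lower in liver, against 228 of all 8023 genes tested. These 31 are 13.6% of the 228 liver falls. The difference between the tissues was tested as an interaction, called for 268 of 8023 genes (3.34%) and for 19 of the 61. Of these 19, 14 fell more in quadriceps, 4 fell more in liver and 1, Ap2b1, rose in quadriceps. Bcat2 (interaction -1.45, adjusted p = 0.0162, limma), Aldh6a1 (-0.99, adjusted p = 0.0157) and Bckdhb (-0.74, adjusted p = 0.0325) fell more in quadriceps, and Ivd fell more in liver (1.33, adjusted p = 0.00114). Liver signal of Bcat2 was 32.0 ± 11.5 in wild type and 31.5 ± 18.6 in knockout (SD, n = 4). This is near the filter signal of 22.1, so the room for a fall in liver was limited. For Dbt the interaction was -0.48 (adjusted p = 0.217, limma) and for Mmut 0.14 (adjusted p = 0.684, limma), neither called. The Adhfe1 difference was -5.04 in liver and -4.36 in quadriceps (interaction adjusted p = 0.277, limma).

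Other amino acid and aldehyde enzymes fell singly. Of 24 tested genes of other amino acid metabolism, 2 fell and 0 rose (list median -0.13). Prodh, which begins proline breakdown, went from 58.6, 43.1, 64.2 and 62.9 to 27.0, 4.6, 2.93 and 2.93 (-1.61, SE 0.28, adjusted p = 0.0176, limma), and knockout 5 held the highest of the knockout values. Gcdh, the glutaryl-CoA dehydrogenase of lysine and tryptophan breakdown, went from 140, 209, 140 and 179 to 48.6, 57.8, 77.9 and 80.3 (-1.16, SE 0.18). Without knockout 8 the alanine transaminase Gpt2 was higher (0.82) and Oat (-0.36) and Glud1 (-0.44) were lower. Of 17 tested alcohol and aldehyde dehydrogenases 3 fell and 0 rose (list median -0.38): Adhfe1, Aldh2 (-1.87, SE 0.12) and Aldh7a1 (-0.83, SE 0.15), and Aldh9a1 passed without knockout 8 (-1.09). The Aldh2 probe set used went from 1217, 1058, 1067 and 987 to 260, 298, 257 and 324, but 2 other probe sets of Aldh2 gave 0.19 and 0.64, so the gene's own change is unsettled.

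Of 21 tested members of the carnitine shuttle and mitochondrial beta oxidation list 4 fell and 0 rose, and the list median was -0.38. A difference below 0 was found in 20 of the 21, against 4796 of all 8023 genes tested. Acaa2, the thiolase of the last step, went from 1180, 1308, 1471 and 1380 to 648, 708, 549 and 880 (-0.94, SE 0.14, adjusted p = 0.00627, limma). Etfb and Etfa, the subunits of the electron transfer flavoprotein, fell by 0.70 (SE 0.10) and 0.60 (SE 0.11), and the dienoyl-CoA isomerase Ech1 by 0.40 (SE 0.08). Etfb went from 1669, 1869, 1786 and 1893 to 1195, 1121, 967 and 1138. Without knockout 8, 11 members were lower, against 5.14% of all genes. Among them were Slc25a20, the carnitine carrier (-0.79), Cpt2 (-0.55), Etfdh (-0.54) and Hadhb (-0.47), and another Cpt2 probe set gave 0.26 with all arrays. Crat, a carnitine acetyltransferase, was higher without knockout 8 (0.36), called in that 1 of the 24 other settings, and another Crat probe set gave -0.01 with all arrays. Knockout 7 was the lowest of the 8 arrays for 12 of the 21 members, against 17.1% of all genes. Without knockout 7 the list median was -0.36. Etfa was called in 16 and Ech1 in 11 of 24 other settings, and both lost the call without knockout 7 and without most other single arrays.

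The steps that feed this route held fewer calls. In fatty acid uptake, activation and lipolysis 1 of 21 tested genes fell, Lpl, the lipoprotein lipase, from 6182, 7395, 6829 and 7256 to 3709, 5213, 4057 and 5365 (-0.61, SE 0.12, adjusted p = 0.0395, limma; list median -0.25). The triglyceride synthesis enzymes Gpam (-0.86) and Dgat2 (-0.91), Abhd5 (-0.52) and Dbi (-0.45) were called lower without knockout 8 and not with all arrays. Another Gpam probe set gave 1.14. Of 14 peroxisomal genes Ehhadh, the bifunctional enzyme of peroxisomal oxidation, fell from 108, 108, 155 and 88.0 to 14.3, 33.3, 33.4 and 39.4 (-1.52, SE 0.22; list median -0.18), and Hsd17b4 passed without knockout 8 (-0.40). Of 8 acyl-CoA thioesterases, which release free fatty acids from their CoA esters, 2 fell (list median -0.13): Acot1, from 84.3, 82.7, 94.1 and 151 to 4.42, 13.0, 21.1 and 14.8 (-2.02, SE 0.23), and Acot7, from 184, 160, 181 and 160 to 95.8, 76.5, 79.7 and 85.7 (-0.90, SE 0.13). Acot1 has close relatives in the same gene cluster whose RNA its probes may also read. Of 14 PPAR receptors, coactivators and targets 1 fell, Ucp3, a mitochondrial uncoupling protein of muscle, from 1127, 1081, 1462 and 1078 to 684, 577, 698 and 876 (-0.74, SE 0.14; list median -0.14), while another Ucp3 probe set gave 0.35. Without knockout 8 the coactivator Ppargc1b (-1.11) and the receptor Rxrb (-0.86) were lower and the corepressor Nrip1 was higher (1.41).

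In glucose metabolism 1 of 29 tested uptake and glycolysis genes fell and 0 rose (list median -0.03). That gene was Fbp2, the muscle fructose bisphosphatase, at 671, 682, 1074 and 469 in wild type and 188, 137, 362 and 305 in knockout (-1.52, SE 0.29, adjusted p = 0.0339, limma). Wild-type values of Fbp2 spread more widely than those of the genes above, and the groups still did not overlap. Without knockout 8, Gpd1 (0.69) and Slc16a3 (0.58) were higher and Ldhb (-1.03) and the glucose transporter Slc2a4 (-0.54) lower. Of 17 glycogen genes 0 were called (limma; 2 at an unadjusted p under 0.05; list median 0.10), and Gsk3b passed without knockout 8 (1.0). Of 29 insulin and IGF signalling genes 0 were called (8 at an unadjusted p under 0.05; list median 0.09), and without knockout 8 Pik3r1 was higher (1.86) and Grb14 lower (-0.83).

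The central mitochondrial machinery showed no calls with all arrays. Of 18 TCA cycle genes 0 were called (limma; 4 at an unadjusted p under 0.05; median -0.15), and of 59 nuclear-encoded respiratory chain genes 0 were called (5 at an unadjusted p under 0.05; median 0.00). Without knockout 8 the TCA genes Fh1 (-0.32) and Sdhb (-0.37) and the respiratory chain gene Cox6a2 (-0.31) were lower and Ndufa4 was higher (0.72). Knockout 7 was the lowest array for 14 of the 18 TCA genes. Of 26 mitochondrial carriers 1 fell, Slc25a42, which carries coenzyme A into mitochondria, from 213, 234, 311 and 215 to 95.7, 116, 65.1 and 105 (-1.22, SE 0.18, adjusted p = 0.00534, limma; list median -0.14). Without knockout 8 the calcium-regulated carrier Slc25a25 (-1.51), the S-adenosylmethionine carrier Slc25a26 (-0.80), the ornithine carrier Slc25a15 (-0.57) and Slc25a46 (-0.42) were also lower.

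Of 39 glutathione and antioxidant genes 3 fell and 0 rose (list median -0.06). Gstm2 went from 455, 450, 412 and 414 to 137, 96.1, 95.2 and 102 (-1.87, SE 0.13, adjusted p = 1.81e-05, limma). Gstk1, the mitochondrial and peroxisomal transferase, went from 519, 474, 562 and 509 to 127, 154, 121 and 132 (-1.83, SE 0.12), and Selenbp1 was the third member. Gstm2 fell more in quadriceps than in liver (interaction -1.41, adjusted p = 0.00266, limma) and Gstk1 more in liver (0.67, adjusted p = 0.0429). Without knockout 8, Gsta4 (-0.91) and Gstm1 (-0.49) were lower and Mgst3 (1.35) and Gpx3 (0.41) higher. Probe sets of these families can take signal from related members.

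Outside metabolism, Fgfbp1 was the 1 called gene of 20 in FGF signalling (list median -0.08), and Fgf13 passed without knockout 8 (-0.45). Fgfbp1 was at 6.91 ± 3.35 in wild-type liver (SD, n = 4), below the filter signal, and its interaction was -2.21 (adjusted p = 0.000676, limma). Tnc, the matrix protein tenascin C, was the 1 called gene of 40 collagens, laminins and matrix genes, from 96.8, 132, 100 and 102 to 52.6, 59.6, 55.9 and 57.7 (-0.77, SE 0.14; list median -0.08). Postn (-0.85) and Ccn2 (-0.87) passed without knockout 8.

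With all arrays 6 genes rose: Ap2b1, of the clathrin adaptor (1.10, SE 0.22), Dysf, the membrane repair protein dysferlin (0.92, SE 0.12), Rarg, a retinoic acid receptor (0.84, SE 0.16), Spock2, a matrix proteoglycan (0.82, SE 0.16), the trefoil factor Tff1 (0.81, SE 0.15) and Rabgef1, an activator of Rab5 (0.63, SE 0.11). Dysf had the smallest adjusted p of the 6. Its signal was 139, 150, 141 and 137 in wild type and 281, 304, 253 and 291 in knockout (adjusted p = 0.00198, limma), and knockout 8 was as high as the others. Ap2b1 went from 63.8, 67.3, 57.7 and 27.4 to 126, 169, 135 and 98.3 (adjusted p = 0.0434, limma), with knockout 8 the lowest of its group, and it rose in quadriceps relative to liver (interaction 1.19, adjusted p = 0.0315).

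Larger rises were seen on knockouts 5 to 7 and not on knockout 8. Jph1, a junctophilin that holds the surface membrane to the calcium store, was at 108, 101, 107 and 102 in wild type and at 608, 414, 381 and 118 in knockout. It was called without knockout 8 (1.97, adjusted p = 7.38e-05, limma) and not with it (1.52, adjusted p = 0.0869). Net1, an activator of RhoA, went from 62.1, 68.8, 44.4 and 57.5 to 205, 264, 486 and 38.2 (2.11 without knockout 8). Snrpd3, a spliceosome protein, went from 115, 135, 118 and 116 to 539, 379, 439 and 117 (1.75 without knockout 8), while 2 other probe sets gave -0.25 and 0.29 with all arrays. In all 3 genes knockout 8 lay far below the other knockout arrays. The other 7 of the 10 largest rises without knockout 8 were Rragd, a Rag GTPase of amino acid sensing (1.92), 6430548M08Rik (1.86), Pik3r1 (1.86), the lipid flippase Atp8a1 (1.84), Prkar2a of protein kinase A (1.81), the deubiquitinase Usp13 (1.74) and Epas1, a hypoxia-inducible factor (1.69). With all arrays none of the 10 was called, and their adjusted p lay between 0.0731 for Usp13 and 0.369 for Prkar2a (limma).

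**Figure D3:**
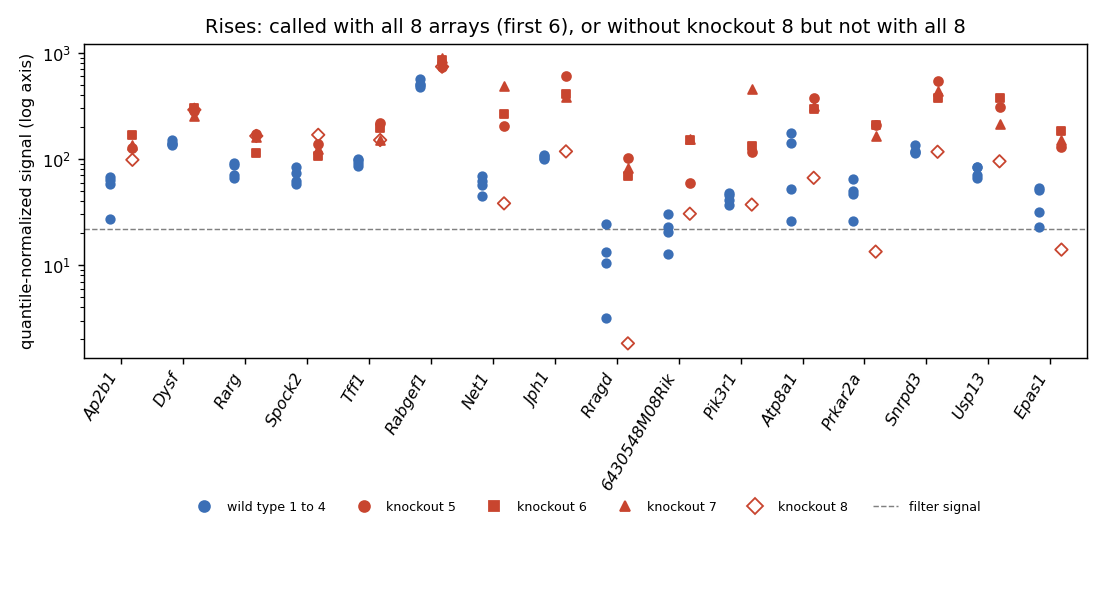
Quantile-normalized signal (log axis) per array for the 6 rises called with all arrays and the 10 largest rises called without knockout 8 and not with all arrays. In the first 6 genes knockout 8 (open diamond) lies above all wild-type arrays, and in Jph1 it is at 118 while knockouts 5 to 7 are at 381 to 608.

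Knockout 8 was then set against wild type for the genes called without it. It took part in choosing the tested genes and probe sets and in the normalization of the values compared, so it was not fully held out. For the 412 falls called without it, knockout 8 lay below the wild-type mean in 272 (66.0%), against 46.1% of all genes, and below every wild-type array in 198 (48.1%, against 25.8%). Its median difference over these genes was -0.13, against -0.65 for knockouts 5 to 7. For the 221 rises, knockout 8 lay above the wild-type mean in 87 (39.4%), against 53.9% of all genes, and its median difference was -0.07 against 0.67. The plot of knockout 8 against the other knockout arrays shows every gene. It lay above every wild-type array in 58 of these 221 (26.2%, against 30.3%) and below every one in 85 (38.5%, against 25.8%). Both differences subtract the same wild-type arrays, on which the genes were chosen, so some likeness is built in and the shares over all genes are no baseline for it. Its dimness, later scan and Gapdh ratio move with this difference, and their part in it was not tested.

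**Figure D4:**
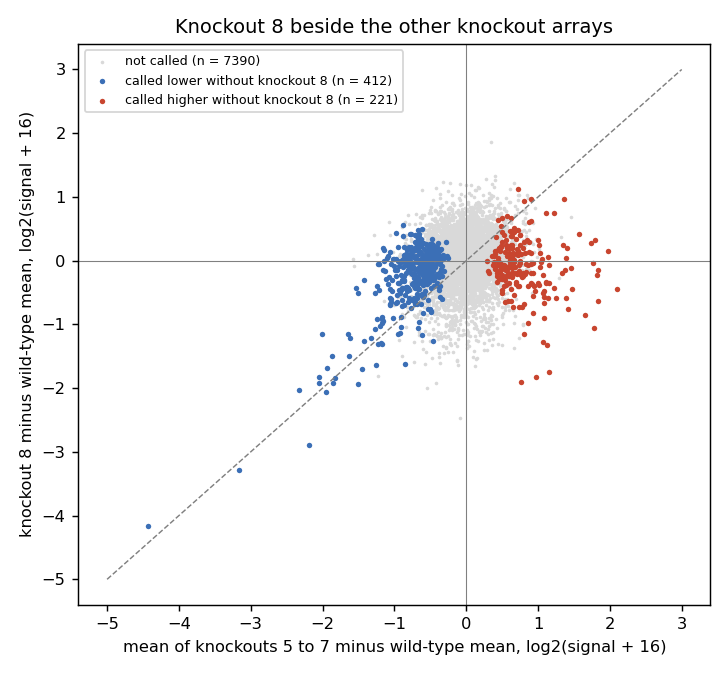
Each point is a gene: the mean of knockouts 5 to 7 minus the wild-type mean (horizontal axis) and knockout 8 minus the wild-type mean (vertical axis), both on the log2(signal + 16) scale. The 412 genes called lower without knockout 8 (blue) include a tail along the dashed line of equality, while the 221 called higher (red) scatter around 0 on knockout 8, with a median of -0.07.

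Muscle-specific lists followed. In the calcium release and junction list 1 of 23 tested genes rose, Dysf, and 0 fell (list median -0.02), and without knockout 8 Jph1, Jph2 (1.48) and Cacna2d1 (1.07) were higher and Hrc (-0.35) lower. Of 15 fast fibre contractile genes 0 were called (limma; 1 at an unadjusted p under 0.05; median 0.00), with Myh2 at -0.19 and Mylk2 at -0.23, those with the smallest p. Of 15 slow fibre genes 0 were called and 0 had an unadjusted p under 0.05, but the median was -0.48. Myh7, the slow myosin heavy chain, was at 1319, 2096, 1334 and 2332 in wild type and at 1296, 2008, 57.7 and 1750 in knockout. Myl3, a slow myosin light chain, was at 2601, 2579, 2766 and 3873 in wild type and at 2332, 3082, 187 and 3082 in knockout. Knockout 7 was the lowest of the 8 arrays for 14 of the 15 genes, with a list median of -2.22 against the wild-type mean, and the other knockout arrays lay between -0.19 and 0.30. Without knockout 7 the list median was 0.08. In bulk muscle, fewer slow fibres and less of this RNA per fibre cannot be told apart.

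**Figure D5:**
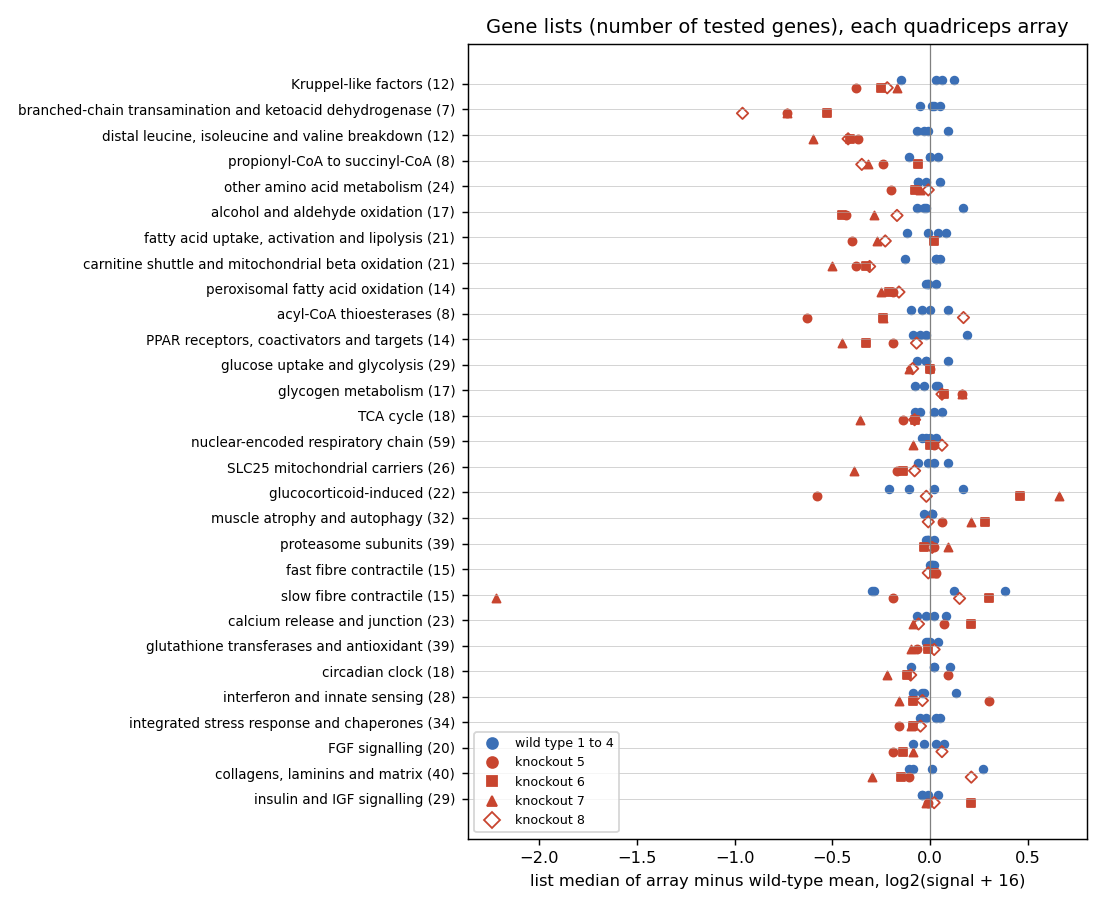
For each of 29 gene lists, the median over its tested genes (their number in brackets) of an array's log2(signal + 16) minus the wild-type mean, with wild-type arrays in blue and knockout arrays in red. Knockout 7 stands at -2.22 in the slow fibre list, the glucocorticoid list spreads from -0.58 (knockout 5) to 0.66 (knockout 7), and the ketoacid dehydrogenase list is below every wild-type array on all 4 knockout arrays.

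Knockout arrays also parted within the glucocorticoid-induced list. Of 22 tested genes 0 were called (limma; 7 at an unadjusted p under 0.05; median 0.22), and the list median was -0.58 on knockout 5, 0.46 on knockout 6, 0.66 on knockout 7 and -0.02 on knockout 8, against -0.21 to 0.17 on the wild-type arrays. Without knockout 8, Pik3r1 was higher and the clock gene Per1 (-0.68) and Nfkbia (-0.67) were lower. Of 32 muscle atrophy and autophagy genes 0 were called (11 at an unadjusted p under 0.05, median 0.14). Without knockout 8 the 5 called were higher, against 2.75% of all genes, among them Usp13, the muscle protease Capn3 (0.63) and Sqstm1 (0.40). Of 39 proteasome subunits 0 were called (5 at an unadjusted p under 0.05; median 0.00), with Psmb2 at 0.88 among 3 higher without knockout 8. No member was called among 18 circadian genes (6 at an unadjusted p under 0.05; median 0.01), 28 interferon and innate sensing genes (2; -0.02) or 34 stress response and chaperone genes (5; -0.12). Without knockout 8, Bhlhe40 of the clock list was lower (-1.17) and the innate sensor Sting1 higher (1.41), and the chaperones Hspa5 (-0.53), Hspa8 (-0.48) and Calr (-0.39) of the stress list were lower.

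Cell type markers were read for the make-up of the samples. Summed signal of 11 myofibre markers, among them Acta1 and Ckm, was 103853 to 106307 in wild type and 104301 to 107729 in knockout, and the 9 hepatocyte markers summed to 96.8 to 164 and 92.6 to 162, so the samples carried muscle RNA and little from liver, and no marker of either list was at 0. Of the 13 marker lists none had a called member with all arrays (limma). Adipocyte markers stood lowest: their sum over 10 genes was 17846 to 20209 in wild type and 15010 to 16812 in knockout, without overlap. Of their tested members 9 of 9 were below 0 (median -0.43), and 5 had an unadjusted p under 0.05. Counts of marker members below or above 0 are to be read against all genes tested, of which 4796 of 8023 were below 0. Adipoq was at 527, 838, 753 and 495 in wild type and at 464, 204, 188 and 612 in knockout, and Adipoq (-1.21), Scd1 (-1.38) and Slc2a4 (-0.54) were lower without knockout 8. Other probe sets of Scd1, at 0.35, and Slc2a4, at 0.41, had the opposite sign. Fabp4, also in the sum, was at -0.36, and its 3 other probe sets gave -0.08 to 0.08. The groups overlapped for Adipoq. Slc2a4 also stands in the glucose uptake and glycolysis list, so the sum need not be of adipocyte RNA alone. The lower marker sum moved with Lpl, Gpam and Dgat2, which adipocytes also express, and its part in those values was not tested. Macrophage markers were above 0 in 10 of 10 tested members (median 0.20), with overlapping sums of 1245 to 1605 in wild type and 1406 to 1977 in knockout. The other medians were 0.23 for neuromuscular junction (5), 0.02 for myofibre (11), 0.00 for fibroblast (11), -0.03 for Schwann and nerve (6), 0.03 for erythroid (4), -0.08 for endothelial (13), -0.13 for smooth muscle and pericyte (8) and -0.14 for satellite cell markers (6), while T and B cell, neutrophil and hepatocyte lists had 1 tested member each, at -0.10, 0.33 and -0.07. Without knockout 8, Pecam1 of the endothelial list was higher (0.62) and Postn of the fibroblast list lower.

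Genome position was read last, from RefSeq gene order. Of the 50 nearest tested genes around Klf15 on chromosome 6, 25 on each side, 0 were called with all arrays (limma; 11 at an unadjusted p under 0.05) and 3 without knockout 8, against 14.9% and 7.89% of all genes tested. Rrs1, a ribosome assembly factor, and Adhfe1 on chromosome 1 were the 1 pair of called genes that are direct neighbours. Rrs1 went from 332, 374, 471 and 438 to 86.3, 157, 198 and 157 (-1.38, SE 0.21, adjusted p = 0.00688, limma), and all knockout arrays were below all wild-type arrays.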

How the data were processed

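Fasted quadriceps RNA of 4 wild-type and 4 Klf15-null samples had been hybridised to Affymetrix Mouse430A_2 arrays. The authors deposited 1 intensity per probe set and array, made with GCOS per the submitters' processing notes; no source used here states its version or scaling. Leaving aside 64 controls among the 22690 probe sets, a single symbol was available for 20380, from which the tested genes were taken. Several symbols were available for 691 and none for 1555, and neither kind was tested. Groups came from the sample titles. The array records supplied only fluidics station, module and scan day.

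The 8 arrays were quantile-normalized on log2(intensity + 16), the brightest probe set per gene was kept (12393 genes), and 8023 genes at or above the 40th percentile (log2 of 5.25, a signal of 22.1) were tested with limma 3.58.1 in R 4.3.3 (lmFit, eBayes with a variance trend, two-sided, Benjamini-Hochberg). Liver and quadriceps were compared in a 16-array limma fit, each tissue normalized alone. The number of arrays limits the precision. Tables and plots used Python 3.11.15, pandas 2.3.3 and matplotlib 3.10.9. The scripts were tested on simulated data.

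Named genes were Klf15, the 15 largest falls and 10 largest rises called, the 10 largest rises called without knockout 8, up to 6 called members of each list with up to 4 more called without knockout 8 (or the 2 with the smallest p where none was called) and the first 2 members of marker lists; other genes were named after their values were seen. The comparison, the 29 pathway lists and the 13 marker lists were chosen with earlier results of these data known. Alternatives changed the pseudocount, filter, normalization, array weights, variance model, probe set choice, module block, samples in the fit and arrays left out. Removing knockout 8 together with another scaling, and setting knockout 8 against wild type for genes called without it, were added after seeing the data. Replicate numbers were checked as pairs across tissues by correlating deviations from group means, which gave -0.08 to 0.05, so they were not taken as pairs.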

Additional observations from a re-analysis of the deposited data

Results flagged for a closer look

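Among 288 groups of 4 arrays examined for the named genes and for the Gapdh ratio, 22 held an array whose gap to its neighbours passed the 95% limit of Dixon's test; chance gives about 1 in 20. Of the 22, 9 were knockout 8. Many named genes were chosen because they were called only without knockout 8, so 1 in 20 is no baseline for that count. Knockout 8 had a Gapdh ratio of 1.093, above the other knockout arrays. It was the array apart for Abhd5 (274), Atp8a1 (66.5), Bcat2 (32.5), Ccn2 (272), Epas1 (14.0), Postn (105), Prkar2a (13.4) and Psmb2 (397). Knockout 7 stood apart for Myh7 (57.7), Myl3 (187) and Selenbp1 (51.7), knockout 5 for Prodh (27.0) and Zfyve21 (34.1), and knockout 6 for Rarg (115). In wild type, array 3 stood apart for Ivd (556), Nfkbia (2147), Per1 (197) and Ucp3 (1462), array 4 for Dbi (1356) and Gpt2 (925), and array 1 for Dgat2 (438).

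The knockout effect differed between quadriceps and liver by the interaction test in limma for 34 of the genes named, given as the quadriceps minus the liver difference. It was below 0 for Fgfbp1 (-2.21), Aldh2 (-1.54), Bcat2 (-1.45), Gstm2 (-1.41), Ehhadh (-1.38), Tango2 (-1.35), Slco5a1 (-1.10), Dguok (-1.01), Aldh6a1 (-0.99), Hspe1 (-0.84) and Bckdhb (-0.74). Among lipid genes it was below 0 for Gpam (-0.91), of triglyceride synthesis, and for the fat oxidation genes Hadhb (-0.78), Acaa2 (-0.77), Cpt2 (-0.67), Etfdh (-0.66), Etfb (-0.53), Hsd17b4 (-0.51) and Ech1 (-0.49). It was also below 0 for Fh1 (-0.86), Slc25a15 (-0.79), Hrc (-0.72), Calr (-0.59) and Oat (-0.48). It was above 0 for Jph1 (2.02), Gsta4 (1.55), Mgst3 (1.52), Sting1 (1.33), Ivd (1.33), Ap2b1 (1.19), Prxl2a (0.85), Aldh7a1 (0.78), Gstk1 (0.67) and Pcca (0.61). Some of the 34, Jph1 among them, were not called in quadriceps with all arrays. Liver signal in wild type and knockout lay below the filter signal for Jph1 (14.5 and 5.25), Slco5a1 (2.59 and 3.83) and Fgfbp1 (6.91 and 4.56). Little knockout effect could show in liver for these genes. Hrc was at 21.9 in wild-type liver and 34.7 in knockout liver, and Bcat2 at 32.0 and 31.5. Other probe sets of Aldh2, at 0.19 and 0.64, of Cpt2, at 0.26, and of Gpam, at 1.14, differed in sign from the ones used in quadriceps.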

How the results depend on the processing

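No named gene that was called changed sign under any of the 24 other settings. Of the 61, 24 stayed called in each setting that tested them (Acot1, Ehhadh and Fgfbp1 were not tested under the 60th percentile filter), and 32 lost the call when at least 1 array was left out. A fit of every probe set separately is not among the 24. It gave 59 calls and shared 45 with the main fit. Other probe sets of Aldh2 (0.19 and 0.64) and Ucp3 (0.35) had the opposite sign to the ones used. Leaving out 1 array gave 29 to 633 calls, the highest being without knockout 8. The count was 964 with median centring (2.59% higher, median difference -0.27), 134 with no scaling (2.24% higher, -0.48), 248 with array weights (32.7% higher) and 288 with all 16 arrays in 1 fit (25.3% higher). Without knockout 8, median scaling gave 1784 calls (5.94% higher) and no scaling 236 (16.9% higher). Counts under the other settings were within 1.5 times the 61. The share of rises among calls thus depends on how knockout 8 and the scale of the arrays are treated; the cause was not tested.

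The interaction was called for 268 genes, 109 with median scaling (22% higher, against 32.8%) and 845 without knockout 8. With the replicate number as a replicate block across tissues it was called for 227; deviations of samples with the same number correlated between -0.08 and 0.05, so the numbers were not shown to pair samples. Signal over background limits genes under 22.1, and 4 arrays per group limit small differences.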

Other observations

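Of the 61 called genes 26 stood in none of the pathway lists, 21 of them lower. They are named here after their values were seen, each with its log2 difference from limma. Several act in mitochondria or peroxisomes: Kyat3, a kynurenine aminotransferase (-1.21, SE 0.17), Mlycd, the malonyl-CoA decarboxylase (-0.56, SE 0.11), Tst, the mitochondrial thiosulfate sulfurtransferase (-0.71, SE 0.14), Dguok, the mitochondrial deoxyguanosine kinase (-1.10, SE 0.18), Hspe1, the mitochondrial co-chaperonin (-0.75, SE 0.15), Dglucy, a D-glutamate cyclase (-1.10, SE 0.17), and Pxmp2, a peroxisomal membrane protein (-1.16, SE 0.18). Tango2, whose loss in humans causes muscle breakdown crises, was at -1.30 (SE 0.16), and it fell more in quadriceps than in liver (interaction -1.35, adjusted p = 0.000676, limma).

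The others were regulators and membrane proteins or have no role stated here. Rbl2, a retinoblastoma relative, was at -1.24 (SE 0.15), and a further probe set gave -1.22. Nfkbib, an inhibitor of NF-kappaB, was at -1.0 (SE 0.15) and Cav1, the caveolin of membrane pits, at -0.51 (SE 0.10). Zfyve21 (-1.60, SE 0.18), Zfp275 (-1.21, SE 0.15), Arl3 (-0.72, SE 0.13), Tpd52l1 (-0.70, SE 0.14), Prxl2a (-0.82, SE 0.16), Med22 (-1.36, SE 0.27) and Slco5a1 (-1.02, SE 0.20) were lower too, and so was Rrs1. Ddt (-1.12, SE 0.18) and Amy1 (-0.77, SE 0.14) have close copies in the genome whose RNA their probes may also read. The 5 rises outside the lists were Ap2b1, Rarg, Spock2, Tff1 and Rabgef1.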
